A study of Callithrix jacchus and Rattus norvegicus and Loxodonta africana with 31 samples.

Results

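The nuclear genes of respiratory complexes I, II and III and of complex V, the ATP synthase, were followed across tissues of the common marmoset, the rat and a wallaby. A gene was a member when the name in the species table began as the names of these subunits do: NDUFA, NDUFB, NDUFC, NDUFS or NDUFV with a number, SDHA to SDHD, UQCR or ATP5. Pseudogenes and genes named as assembly factors (AF) were left out. The rule found 120 entries among the 54059 of the 3 tables. There were 9 of 19681 in the marmoset, 73 of 20486 in the rat and 38 of 13892 in the wallaby. The marmoset table names few genes, so its 9 members are a small part of these complexes (3 of complex I, 1 of complex II, 3 of complex III and 2 of complex V). The rat had 42, 4, 9 and 18 members of complexes I, II, III and V, and the wallaby 21, 3, 5 and 9.

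The series sequenced polyadenylated RNA to study Y-linked genes. Its 31 samples are 14 from the marmoset, 12 from the rat, 2 from the wallaby and 3 of elephant fibroblasts, which are not used here. The marmoset and rat tables each have a male and a female column for heart, liver, kidney and brain, the 4 somatic tissues, and 1 column each for testis and ovary. The wallaby has 1 testis and 1 liver column, both male. The labels give no treatment, no genotype, no strain and no age. All somatic samples of one sex in a species come from 1 individual, per the labels, so sex and animal cannot be told apart. The marmoset testis column stands for 3 samples of 2 individuals and is given as the authors' value. Each brain column matched both a frontal cortex and a cerebellum sample, and the labels do not say which it holds. Cortical and cerebellar marker genes were present in all 4 brain columns, with sums of 207 to 319 FPKM for cortical and 121 to 718 FPKM for cerebellar markers.

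The respiratory chain passes electrons from food to oxygen along complexes of the inner mitochondrial membrane. Complex I takes them from NADH and complex II from succinate, both hand them to ubiquinone, and complex III passes them on to cytochrome c. Complexes I and III pump protons, and complex V lets these protons flow back through its membrane rotor to drive ATP synthesis in its catalytic head. Heart muscle is known as one of the tissues richest in mitochondria, while neurons of the brain also depend on oxidative phosphorylation. Male germ cells are known to replace several metabolic enzymes by germ-cell forms during sperm formation.

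FPKM values (fragments per kilobase of transcript, scaled by the authors) allow genes of different length to be compared, but the tables hold no counts, so the sequencing depth is unknown and no counting error can be given. The sum of FPKM over all genes differed strongly between columns of a species. In the rat it was 3551200 in male and 3292150 in female heart, against 578394 in male and 774373 in female brain. In the marmoset it was highest in male liver, at 1686920, and lowest in female brain, at 210712. Levels below are as deposited, and the total counts of members called, or outside the somatic range by 1 log2 unit, are also given after scaling every column to the same sum. Summed own-tissue markers were highest in their own tissue, although the marmoset testis markers reached only 31.9 FPKM there. Heart markers summed to 94078 and 64692 FPKM in the male and female rat hearts, against at most 46.4 FPKM in the other rat columns. Albumin (ALB) stood at 0 in all 4 marmoset and rat livers, so a value of 0 is called listed at 0 here. The liver markers FGA, FGB and SERPINA1 were also at 0 in male marmoset liver, and the heart marker MYH7 in male marmoset heart.

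In the rat, members of all 4 complexes were abundant in heart. The median member was at 691 FPKM in male and 674 FPKM in female heart. It was at 292 and 196 FPKM in male and female liver and at 244 and 139 FPKM in kidney. In brain it was at 73.2 and 71.8 FPKM, near the 78.0 FPKM of ovary and the 44.7 FPKM of testis. The marmoset gave the same order in the 4 somatic tissues. Its median member was at 439 FPKM in male and 284 FPKM in female heart, at 312 and 136 FPKM in liver, at 238 and 77.3 FPKM in kidney and at 57.7 and 43.8 FPKM in brain. The authors' marmoset testis value for the median member was 75.0 FPKM, and ovary had 29.6 FPKM. In bulk tissue, fewer cells of a type and less RNA per cell cannot be told apart.

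The share of the summed FPKM that the members took gave another order. In the rat it was 2.40% and 2.07% in male and female heart and 2.59% and 2.08% in kidney. It was 1.43% and 1.40% in liver, 1.14% and 0.837% in brain, 0.926% in testis and 1.54% in ovary. By this measure rat heart did not stand above kidney. In the marmoset the 9 members took 2.55% and 1.13% in male and female heart, 1.13% and 0.431% in kidney, 0.604% and 0.369% in brain and 0.449% and 0.182% in liver, so that brain lay above liver.

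The highest rat members by mean over the 8 somatic libraries were Uqcrq, a small subunit of complex III, at 2702 FPKM, and Atp5l, of the ATP synthase membrane part, at 2269 FPKM. Next came Atp5b, the catalytic beta subunit, at 2047 FPKM, Atp5e, of the central stalk, at 1566 FPKM, and Atp5a1, the alpha subunit, at 1271 FPKM. The lowest mean above 1 FPKM was that of Atp5s, a coupling factor outside the enzyme, at 8.72 FPKM. At the other end 4 rat members never reached 1 FPKM in any column. These were Ndufb3l, at most 0.000197 FPKM, Ndufb4l1, at most 8.77e-05 FPKM, Uqcr10, at most 0.242 FPKM, and Atp5h, at most 0.115 FPKM. Uqcr10 and Atp5h encode subunits of complexes III and V that the enzymes are known to contain. Ndufa4l2, a relative of Ndufa4, reached 132 FPKM in male heart and was listed at 0 in both livers. Of the 73 rat members 69 passed the filter of at least 1 FPKM in at least 2 somatic libraries, and 68 of these were above 0 in all 8. All 9 marmoset members passed. In the rat 5 names occur at 2 loci each (Atp5f1, Ndufb4, Ndufs5, Ndufv3 and Uqcrb), and reads of such near-identical copies may be split between them, so their single values are uncertain.

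**Figure D1:**
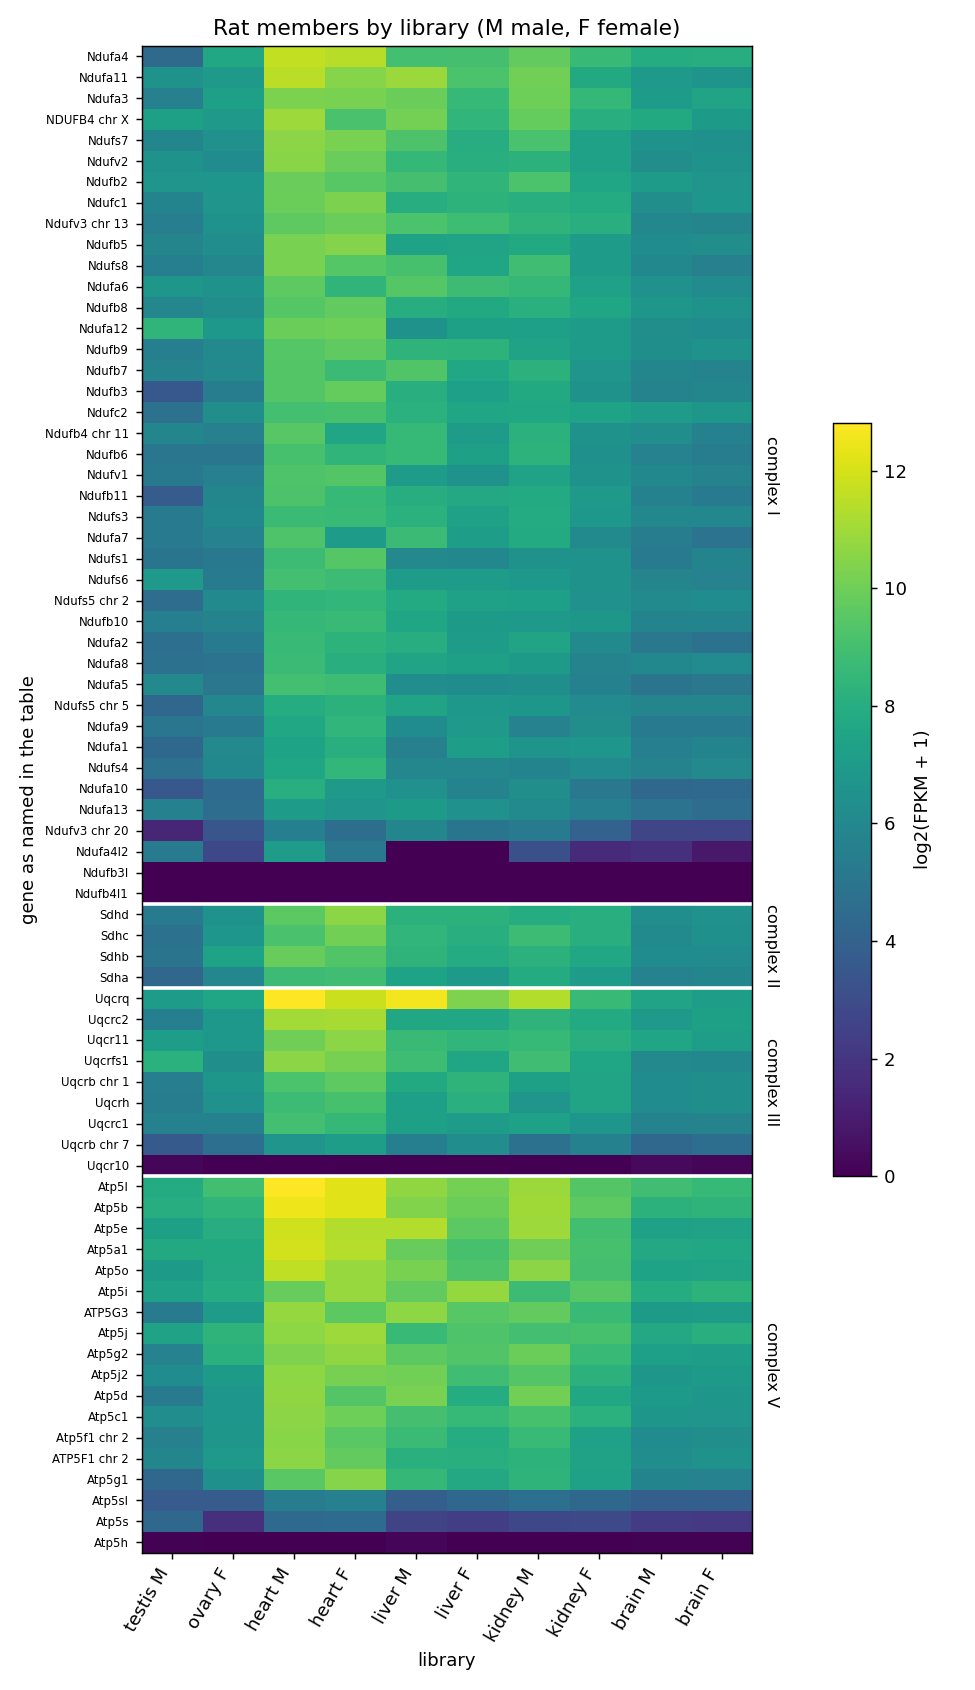
Each row is 1 of 72 of the 73 rat members, grouped by complex, and each column 1 deposited tissue column, with colour showing log2(FPKM + 1). The 2 heart columns are the brightest for most rows, with medians of 691 and 674 FPKM, and the 4 rows that stay dark are Ndufb3l, Ndufb4l1, Uqcr10 and Atp5h.

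Heart carried more transcript of almost every member than the other somatic tissues. Against the mean of brain, kidney and liver, 67 of the 68 rat members counted were higher, with a median log2 change of 2.11 and a range of 0.84 to 3.48. All 9 marmoset members were higher, with a median of 1.87 and a range of 1.14 to 2.68. Over all genes above 0 in the 8 libraries, 17.2% were called higher and 13.5% lower in rat heart and 13.5% higher and 15.1% lower in marmoset heart. The median change of all genes was -0.01 in the rat and -0.08 in the marmoset. A call needed a Benjamini-Hochberg adjusted p under 0.05 over all genes tested with limma, and a change of 1 log2 unit or more, on log2(FPKM + 1). Changes of genes with few FPKM are understated on this scale.

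Uqcrc2, a core protein of complex III, showed the largest rat change. It was at 2115 FPKM in male and 2284 FPKM in female heart, against 121 and 155 FPKM in male and female brain, 328 and 225 FPKM in kidney and 195 and 207 FPKM in liver. The heart columns lay far above all others, and the log2 change was 3.48 ± 0.27 (limma estimate ± SE, adjusted p = 0.000141). Next were Ndufb5, a membrane-arm subunit of complex I, by 3.27 ± 0.27, Ndufa12, of its matrix arm, by 3.18 ± 0.27, Ndufa5, also of the matrix arm, by 3.14 ± 0.25, Ndufs1, its largest iron-sulfur subunit, by 3.05 ± 0.24, and Uqcrfs1, the Rieske iron-sulfur protein of complex III, by 2.92 ± 0.34.

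Ndufs1 shows the matrix arm of complex I in both species. In the rat it was at 436 FPKM in male and 688 FPKM in female heart, against 39.2 and 53.9 FPKM in brain, 95.6 and 91.6 FPKM in kidney and 65.4 and 63.3 FPKM in liver. In the marmoset NDUFS1 was at 439 and 572 FPKM in male and female heart, against 44.7 and 43.8 FPKM in brain, 91.4 and 73.6 FPKM in kidney and 140 and 116 FPKM in liver. The groups did not overlap in either species. NDUFS1 had the largest marmoset change, 2.68 ± 0.22 (limma adjusted p = 0.000245).

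The catalytic subunits of complex V followed. Rat Atp5b was at 5883 and 4658 FPKM in male and female heart, against 303 and 326 FPKM in brain, 2059 and 791 FPKM in kidney and 1356 and 997 FPKM in liver. Its heart columns lay above all others. The log2 change was 2.75 ± 0.37 for Atp5b and 2.76 ± 0.30 for Atp5a1. In the marmoset ATP5A1 was higher by 2.41 ± 0.24 and ATP5B by 2.38 ± 0.27. ATP5B was at 2113 and 842 FPKM in male and female marmoset heart, against 171 and 132 FPKM in brain, 420 and 200 FPKM in kidney and 568 and 261 FPKM in liver.

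SDHA, the flavoprotein that oxidises succinate in complex II, had the smallest marmoset change, 1.14 ± 0.23 (limma adjusted p = 0.00779). It was at 397 and 201 FPKM in male and female marmoset heart, against 57.2 and 41.5 FPKM in brain, 238 and 99.4 FPKM in kidney and 414 and 182 FPKM in liver. Here heart and liver overlapped. Rat Sdha, at 435 and 470 FPKM in male and female heart, was higher by 2.00 ± 0.28, and its iron-sulfur partner Sdhb by 2.15 ± 0.24. The other core subunits fell within the same range. Rat Ndufv1, which binds NADH, was higher by 2.80 ± 0.26 and Uqcrc1, the other core protein of complex III, by 2.12 ± 0.23. Marmoset UQCRC2 was higher by 1.87 ± 0.27 and UQCRC1 by 1.78 ± 0.23. The 3 small marmoset members were UQCR11 of complex III at 2.03 ± 0.40, NDUFA11 of the complex I membrane arm at 1.76 ± 0.40 and NDUFS6, a matrix-arm subunit, at 1.68 ± 0.27.

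**Figure D2:**
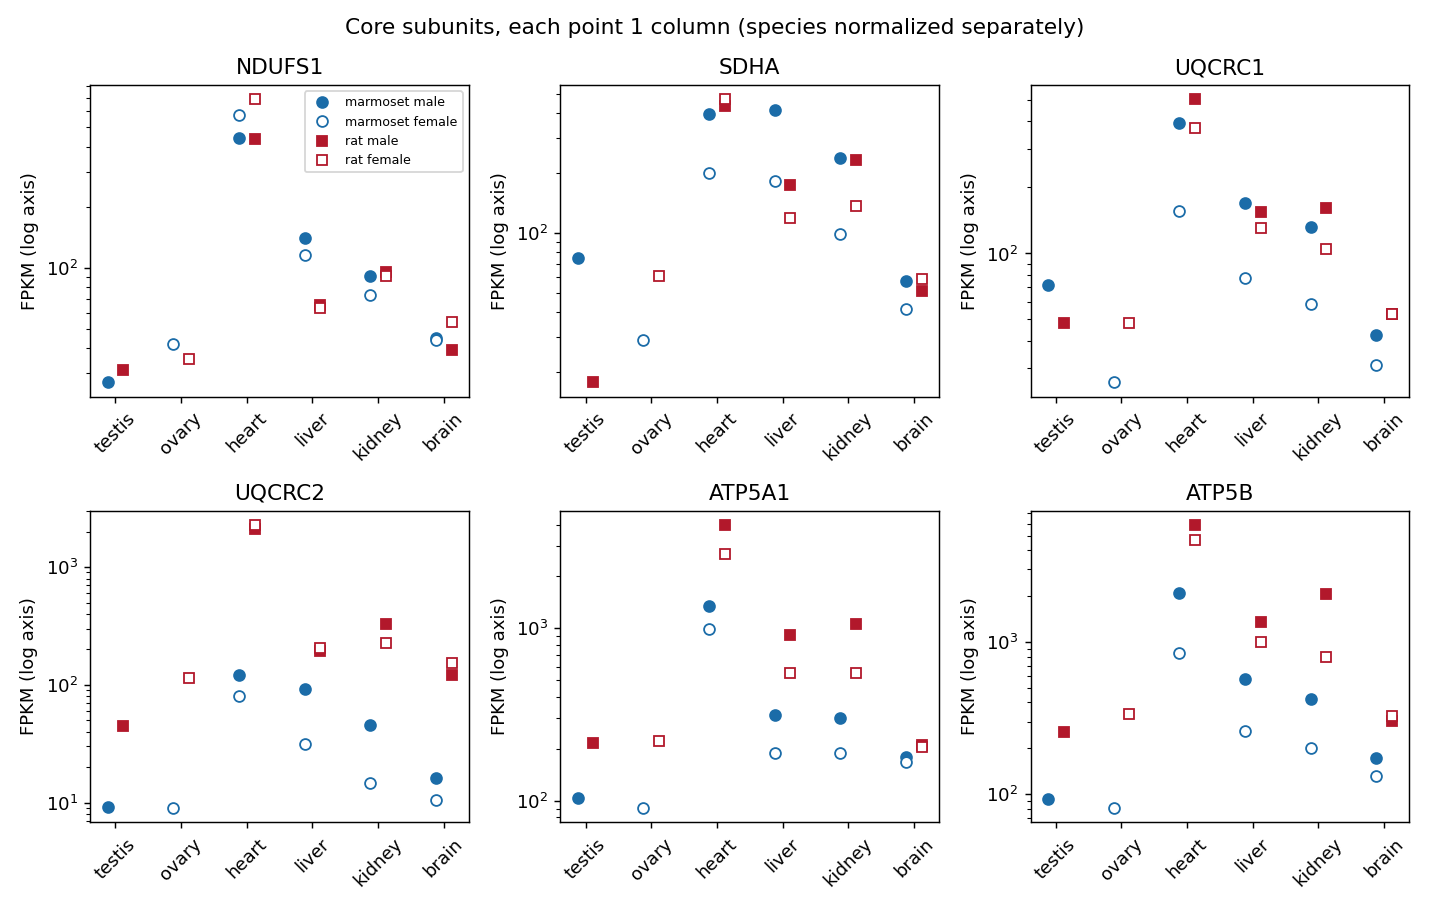
FPKM on a log axis of 6 core subunits by tissue in the marmoset (blue) and the rat (red), 1 point per deposited column, filled for male and open for female. Heart points lie at the top for NDUFS1, ATP5A1 and ATP5B in both species, while marmoset SDHA reaches 414 FPKM in male liver and 397 FPKM in male heart.

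The 4 rat complexes changed by like amounts, with medians of 2.02 for complex I (38 of 39 higher), 2.08 for complex II (4 of 4), 2.18 for complex III (8 of 8) and 2.22 for complex V (17 of 17). The member not called was the Ndufv3 copy on chromosome 20, a complex I subunit, at 0.84 ± 0.27. Within complex I the 17 subunits of the matrix arm had a median of 2.13 and the 21 of the membrane arm and other accessory subunits 1.80. The 3 core and Rieske proteins of complex III had a median of 2.92, and its 5 small subunits 2.15. In complex V the catalytic head and central stalk (5 members) stood at 2.36, the peripheral stalk (4 members) at 2.38 and the membrane part (6 members) at 1.94. These module medians are descriptions, and differences between modules were not tested. Atp5s and Atp5sl carry complex V names but lie outside the enzyme, and were higher by 1.94 and 1.36. Ndufa4, named for complex I and now placed with cytochrome c oxidase (complex IV), was higher by 2.80 ± 0.32.

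In 56 of 69 rat members both heart libraries lay above all 6 libraries of the other somatic tissues, against 16.9% of all genes. In the marmoset this held for 4 of 9 members, against 11.1% of all genes. In the fit without the animal block, 60 rat members (16.2% of all genes) and 4 marmoset members (10.3%) were called higher. Leaving out 1 library at a time gave 48 to 68 rat members and 6 to 9 marmoset members. After scaling to the same FPKM sum, 16 of 68 rat members were called higher and 0 lower, against 3.32% of all genes higher. The median member was then at 0.45 and the median gene at -1.10. In that scaling 14 of 68 rat members turned to a negative change, and among the core members named above Sdha, Sdhb and Uqcrc1 stayed positive but were no longer called. In the marmoset 8 of 9 were called higher (10.8% of all genes), SDHA being lost, with a median of 1.67 against -0.31 for all genes. In the rat, blood markers also moved with heart. The 8 listed summed to 5087 and 3479 FPKM in male and female heart, against 40.2 to 1000 FPKM in the other columns, and 4 of the 6 above 0 in all libraries were called higher and 0 lower. In the marmoset the 4 listed summed to 55.0 and 81.6 FPKM in male and female heart, against 1.36 to 32.7 FPKM, but of the 2 above 0 in all libraries 1 was called higher and 1 lower. Their part in the result was not tested.

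**Figure D3:**
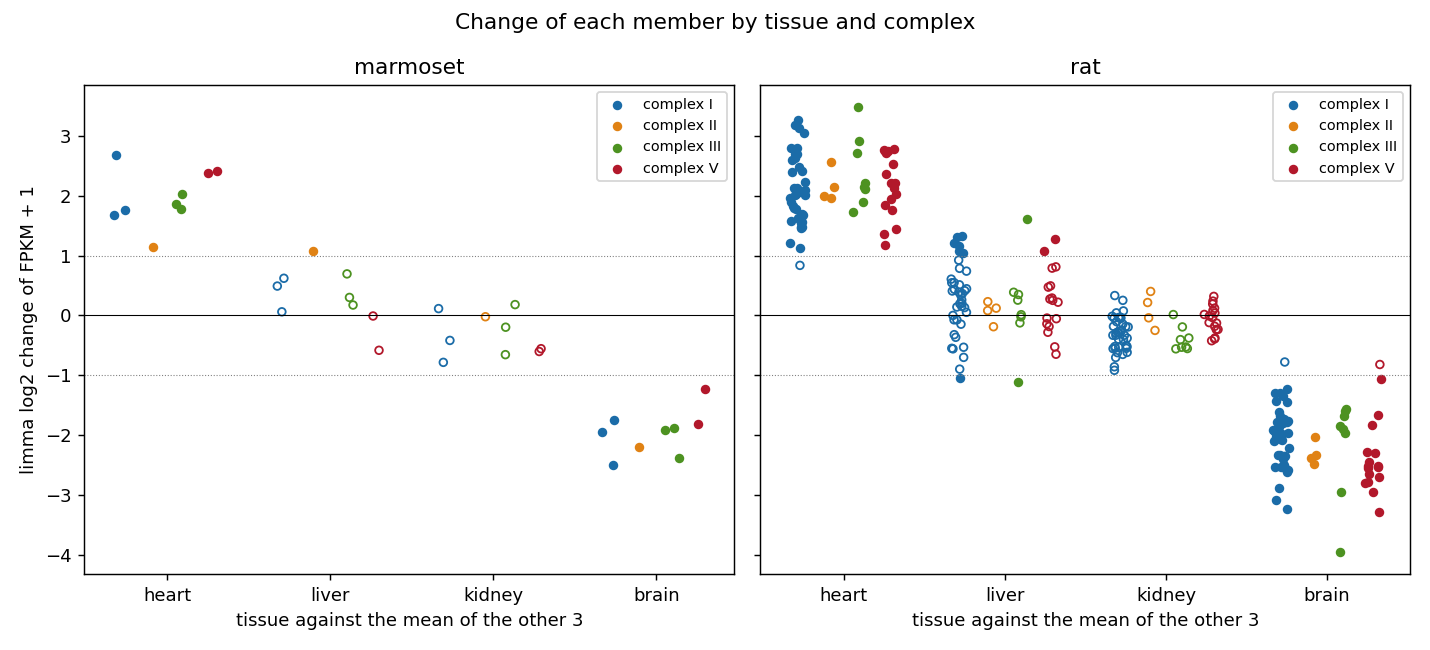
Points are members, placed by tissue and coloured by complex, and the vertical axis is the limma log2 change of FPKM + 1 against the mean of the other 3 somatic tissues. Filled points were called and open points were not, and dotted lines mark 1 and -1. Heart points run up to 3.48 in the rat and 2.68 in the marmoset, kidney points straddle 0, and brain points run down to -3.96 in the rat and -2.50 in the marmoset.

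Brain was the opposite of heart on the deposited scale. Against the mean of heart, kidney and liver, 66 of 68 rat members were lower, with a median log2 change of -2.09, and all 9 marmoset members were lower, with a median of -1.91. Over all genes 27.9% were called lower and 12.5% higher in rat brain, and 29.2% lower and 14.0% higher in marmoset brain, and the median gene was at -0.32 and -0.35. The brain and heart comparisons of a species share their samples, so they are not independent of each other.

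Uqcrq had the largest rat change. It was at 177 and 138 FPKM in male and female brain, against 7247 and 3536 FPKM in heart, 2612 and 392 FPKM in kidney and 6199 and 1317 FPKM in liver. The brain columns lay below all others, and the change was -3.96 ± 0.51 (limma adjusted p = 0.000637). The other leading decreases were in Atp5e by -3.29 ± 0.46, in Ndufa11 by -3.25 ± 0.42, in the Ndufv3 copy on chromosome 13 by -3.09 ± 0.25, in Atp5g1, which encodes the c subunit of the ATP synthase rotor, by -2.96 ± 0.41, and in Uqcrfs1 by -2.95 ± 0.34. The 2 members not called were Ndufs4, a matrix-arm subunit of complex I, at -0.78 ± 0.24, and Atp5sl at -0.82 ± 0.22.

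In the marmoset NDUFA11 had the largest change, at 60.3 and 12.3 FPKM in male and female brain, against 1204 and 56.0 FPKM in heart, 315 and 38.2 FPKM in kidney and 415 and 49.4 FPKM in liver. The male brain column lay above the female columns of the other 3 tissues, so the groups overlapped, although brain was lowest within each animal. The change was -2.50 ± 0.40 (limma adjusted p = 0.00179). After it came UQCR11 at -2.39 ± 0.40, SDHA at -2.21 ± 0.23, NDUFS1 at -1.95 ± 0.22, UQCRC2 at -1.91 ± 0.27 and UQCRC1 at -1.88 ± 0.23. The smallest change was that of ATP5A1, -1.22 ± 0.24.

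Both brain libraries lay below all 6 others in 65 of 69 rat members, against 26.1% of all genes, and in 6 of 9 marmoset members, against 23.0%. By complex the rat medians were -2.04 for complex I, -2.37 for complex II, -1.87 for complex III and -2.52 for complex V. Scaling to the same FPKM sum lowered these counts. In that scaling 23 of 68 rat members (9.24% of all genes) and 0 of 9 marmoset members (10.2%) were called lower, with medians of -0.65 and -0.37. The median of all genes then moved to 0.78 in the rat and 1.06 in the marmoset. Measured from the median gene, the median member was at -1.43 in both species in that scaling, and at -1.77 in the rat and -1.56 in the marmoset after centring each library on its median.

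Other genes of mitochondrial energy metabolism were counted in the same fits. Beside their counts in heart stand the shares of all genes, 17.2% higher and 13.5% lower in the rat and 13.5% higher and 15.1% lower in the marmoset. The names searched for complex IV and cytochrome c included CYC1, the cytochrome c1 of complex III. In rat heart 14 of 17 genes of this list were called higher and 1 lower, and in marmoset heart 5 of 6 were higher. Among them COX6A2 and COX8B, muscle forms of cytochrome oxidase subunits, were higher by 9.89 ± 0.23 and 10.67 ± 0.49 in the rat. In the marmoset COX6A2 was higher by 7.88 ± 0.35 and COX7A1, also a muscle form, by 3.88 ± 0.42. The tricarboxylic acid cycle makes NADH and succinate, and its list also held genes of the pyruvate dehydrogenase complex, which feeds it. This list, called the cycle below, had 17 of 19 genes higher in rat heart, and 18 higher and 1 lower of 19 in marmoset heart. Examples were IDH2, mitochondrial isocitrate dehydrogenase, by 4.44 ± 0.28 and CS, citrate synthase, by 3.42 ± 0.27 in the rat, and CS by 3.09 ± 0.20 in the marmoset. The list for ATP export and coupling named carriers, uncouplers, porins, mitochondrial creatine kinases and the ATP synthase inhibitor. It also named NDUFAB1 of complex I and USMG5 and C14ORF2 of complex V, which the member rule missed. This list, called carriers below, had 11 of 13 higher in rat heart. It was led there by SLC25A4, the heart form of the ADP/ATP carrier, at 6.11 ± 0.31. In marmoset heart the list had 9 higher and 1 lower of 11. Among these were CKMT2, the muscle mitochondrial creatine kinase, at 7.16 ± 0.21 and CKMT1B, another mitochondrial creatine kinase, at -3.16 ± 0.18.

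Assembly factors, which build these complexes without staying in them, were called higher for 17 of 25 in rat heart and 10 of 21 in marmoset heart, with medians of 1.29 and 0.97. LYRM7, which guides the Rieske protein into complex III, was higher by 2.16 ± 0.31 in the rat. NDUFAF6, an assembly factor of complex I, was higher by 2.04 ± 0.20 in the rat and 1.40 ± 0.20 in the marmoset. ECSIT, of the same process, was higher by 1.65 ± 0.19 in the marmoset and 1.99 ± 0.22 in the rat. Regulators of mitochondrial biogenesis had 8 of 18 higher in rat heart. In marmoset heart they had 2 of 15, near the 13.5% of all genes. PPARGC1A, the coactivator PGC-1 alpha, was higher by 1.23 ± 0.19 in the rat and 1.56 ± 0.43 in the marmoset, and ESRRG, an estrogen-related receptor, by 1.57 ± 0.25 and 1.59 ± 0.19. Glycolysis was mixed, with 13 higher and 4 lower of 22 in rat heart and 5 higher and 6 lower of 19 in marmoset heart. PGAM2, the muscle phosphoglycerate mutase, was higher by 7.32 ± 0.23 in the rat and 7.99 ± 0.32 in the marmoset. In rat heart, scaling to the same FPKM sum left 0 assembly factors and 0 regulators called higher, with 5 of 25 and 5 of 19 lower. Of all genes 3.32% were then called higher and 55.4% lower, and the median gene was at -1.10. The medians of assembly factors (-0.19), regulators (-0.52) and glycolysis (-0.25) turned negative but lay above that of all genes. Those of complex IV with cytochrome c (0.85), the cycle (0.71) and the carriers (1.13) stayed positive.

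In brain, on the deposited scale, most list genes called were lower, glycolysis excepted, against 27.9% of all genes lower and 12.5% higher in the rat and 29.2% and 14.0% in the marmoset. Complex IV with cytochrome c had 15 of 17 lower in the rat and 6 of 6 in the marmoset. The cycle had 15 lower and 1 higher of 19 in the rat, the exception being OGDHL, a brain form of oxoglutarate dehydrogenase, at 2.57 ± 0.40, and 13 of 19 lower in the marmoset. Assembly factors were lower in 15 of 25 and 10 of 21, regulators in 8 of 18 and 6 of 15 (1 higher in the marmoset), and carriers in 8 of 13 and 6 of 11 (1 higher in the marmoset). Glycolysis had 6 higher and 7 lower of 22 in the rat and 5 higher and 5 lower of 19 in the marmoset. ALDOC, the brain aldolase, was higher by 7.81 ± 0.21 in the rat and 5.97 ± 0.25 in the marmoset. The counts depended on the scaling. With equal FPKM sums, complex IV with cytochrome c had 6 lower and 1 higher in rat brain and 2 lower and 0 higher in marmoset brain, and the cycle had 4 lower and 2 higher and 3 lower and 3 higher. Assembly factors then had 4 higher in the rat and 3 in the marmoset and 0 lower, and glycolysis 13 and 11 higher. The shares of all genes were then 40.4% higher and 9.24% lower in rat brain, and 51.7% and 10.2% in marmoset brain. In brain, scaling to the same sum turned the medians of assembly factors (0.25 in the rat, 0.44 in the marmoset) and regulators (0.44 and 0.63) positive. That of glycolysis moved to 1.28 and 1.32. The median gene was then at 0.78 in the rat and 1.06 in the marmoset, above assembly factors and regulators and below glycolysis.

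On the deposited scale the median changes of kidney and liver lay between those of heart and brain. With equal FPKM sums the rat kidney median, 0.63, lay above heart at 0.45. The marmoset liver median, -1.36, then lay below brain at -0.37. Measured from the median gene, the median rat member was then at 1.55 in heart, 0.03 in kidney and liver and -1.43 in brain. The median marmoset member was at 1.98 in heart, -0.39 in kidney, -0.14 in liver and -1.43 in brain. By that measure kidney and liver again lay between heart and brain. No member was called in kidney by limma in either species. At an unadjusted p under 0.05, 7 rat and 3 marmoset members were lower and 0 higher. The shares of all genes at that threshold were 19.9% lower and 18.7% higher in the rat and 18.9% lower and 22.2% higher in the marmoset. Over all genes 10.1% were called higher and 8.05% lower in rat kidney, and 11.9% and 7.96% in marmoset kidney. The medians were -0.24 in the rat and -0.42 in the marmoset. By adjusted p alone, 1 member in each species was lower (14.7% of all genes in the rat and 13.7% in the marmoset). These were Ndufb9, a membrane-arm subunit, at -0.86 ± 0.24 in the rat (limma adjusted p = 0.0298) and NDUFS1 at -0.79 ± 0.22 in the marmoset (adjusted p = 0.0328). With the brain columns left out, so that kidney was set against heart and liver, 40 rat members (11.8% of all genes) and 5 marmoset members (9.62%) were called lower and 0 higher. On the scale of equal FPKM sums, 7 rat members were instead called higher (25.4% of all genes) and still 0 marmoset members were called.

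Few members were called in liver. In the rat 9 were higher and 2 lower of 68, both smaller shares than the 20.4% and 15.1% of all genes. The 6 largest increases were Uqcrq by 1.62 ± 0.51, the matrix-arm subunit Ndufa6 by 1.33 ± 0.28, the Ndufv3 copy on chromosome 20 by 1.31 ± 0.27, ATP5G3, another c subunit gene, by 1.28 ± 0.34, Ndufa7, of the matrix arm, by 1.21 ± 0.33 and Ndufa11 by 1.16 ± 0.42. The 2 decreases were Uqcrc2 by -1.11 ± 0.27 (limma adjusted p = 0.0121) and Ndufs1 by -1.04 ± 0.24 (adjusted p = 0.00955). Ndufa6 was at 686 and 436 FPKM in male and female liver, against 788 and 338 FPKM in heart, 374 and 163 FPKM in kidney and 90.0 and 70.8 FPKM in brain, so liver and heart overlapped. In the marmoset SDHA was the 1 member called, by 1.09 ± 0.23 (adjusted p = 0.00794). Over all genes 21.7% were called higher and 14.5% lower there.

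These liver calls depended on single libraries and on scaling. The count of 11 in the rat fell to 0 without male liver, 2 without female liver, 6 without male heart and 7 without female heart. Without the animal block 2 were higher and 2 lower (18.6% and 14.6% of all genes), and after median centring 4 were higher and 3 lower (15.9% and 20.6%). Against heart and kidney alone, with the brain columns left out, 12 were called, all lower (15.0%). With each column brought to the same FPKM sum, 10 were called, again all lower (24.7%). The SDHA call was lost without male liver, without the male or both brain columns, without the block and after centring, and its change turned to -0.58 after scaling to the same sum, where 7 of 9 marmoset members were called lower (59.0% of all genes).

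The ATP5G genes encode the same mature c subunit from different precursors, and their shares of the summed level varied by tissue. Rat Atp5g1 made up 19.6% and 37.5% of the summed FPKM of the 3 genes in male and female heart, 13.4% to 16.9% in the other somatic libraries, 18.2% in testis and 17.0% in ovary. ATP5G3 made up 46.5% in male but 20.0% in female heart, so the hearts differed from each other. Its highest share was 57.9% in male liver. In rat heart Atp5g1 was higher by 2.79 ± 0.41, Atp5g2 by 1.84 ± 0.37 and ATP5G3 by 1.44 ± 0.34. Without the animal block ATP5G3 was no longer called (limma adjusted p = 0.0523).

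The male and female animal differed for many members. These differences have 1 animal per sex and no test. All 9 marmoset members were higher in the male in brain, kidney and liver and 8 of 9 in heart, NDUFS1 being lower there. The median male minus female difference was 0.98 log2 in heart, 0.44 in brain, 1.16 in kidney and 1.13 in liver, and over all genes it was 0.32, 0.12, 0.23 and 0.25. UQCR11 was at 14922 FPKM in male and 1660 FPKM in female marmoset heart. In the rat 58 of 69 members were higher in male kidney, with a median of 0.93, and 53 in male liver, with a median of 0.48, against 0.20 and 0.13 over all genes. Heart (38 of 69) and brain (35 of 69) were evenly divided. With columns scaled to the same FPKM sum, the rat medians were 0.10 in kidney and -0.29 in liver. In these, 37 and 21 of 69 were higher in the male. In brain 67 of 69 were then higher in the male, with a median of 0.41. The sum of male rat brain, 578394, was below the 774373 of the female, so scaling raised male brain values in general. Cerebellar markers also differed, at 718 FPKM in male and 121 FPKM in female rat brain. The marmoset medians with equal sums were 0.01 in heart, 0.20 in brain and 0.31 in both kidney and liver. Sex differences over all genes are not given for this scaling.

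The members on the rat X chromosome differed in direction between the sexes. Ndufa1, an accessory subunit of complex I that its assembly needs, was lower in the male in all 4 tissues, at 175 FPKM in male and 276 FPKM in female heart and at 47.3 FPKM in male and 144 FPKM in female liver. Ndufb11, a membrane-arm subunit, was higher in the male in all 4, at 601 and 385 FPKM in male and female heart and 249 and 214 FPKM in liver. The X-linked NDUFB4 copy was also higher in the male in all 4, at 1955 and 558 FPKM in heart. So was the autosomal copy on chromosome 11, at 727 and 187 FPKM in heart. Reads may be split between these copies, so this direction is not particular to the X-linked one. With equal FPKM sums the X-linked NDUFB4 copy stayed higher in the male in all 4 tissues. Ndufa1 turned to a male minus female difference of 0.16 in brain and stayed lower in the other 3, and Ndufb11 turned to -0.58 in liver and stayed higher in the other 3.

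Rat testis held little of most members. Of 68 members 56 were below every somatic library, against 31.3% of all genes, and 17 were at least 1 log2 unit below, against 7.80% of all genes, while 0 were that far above, against 10.5%. The column has no replicate, so these are descriptions. The germ-cell content was high, with 10 of 10 testis markers at 1 FPKM or more and a sum of 18363 FPKM, including 5435 FPKM for PRM1, a protamine of sperm chromatin.

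Ndufa4 was farthest below. It stood at 20.3 FPKM in testis, against 248 FPKM in the lowest and 3186 FPKM in the highest somatic library, a gap of -3.55 log2 to the lowest. Ndufb3, a membrane-arm subunit of complex I, stood at 10.7 FPKM against a lowest of 52.7 FPKM (-2.20), and Ndufc2, of the same arm, at 27.8 FPKM against 110 FPKM (-1.94). ATP5G3 stood at 37.5 FPKM against 125 FPKM (-1.72), Atp5d, of the ATP synthase central stalk, at 36.2 FPKM against 109 FPKM (-1.57) and Ndufb11 at 12.2 FPKM against 37.9 FPKM (-1.56). The 3 c subunit genes were all among the 17, with Atp5g2 at -1.51 and Atp5g1 at -1.31. So were 3 of the 4 subunits of complex II, Sdha at -1.47, Sdhc, a membrane anchor, at -1.34 and Sdhb at -1.22. The brain columns set this floor for many members. Against heart, kidney and liver alone, 49 were at least 1 log2 unit below, against 14.3% of all genes.

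Set against the median member of its own column, a measure that does not depend on the scaling of columns apart from the pseudocount, some members stood out in rat testis. Ndufa12 was at 335 FPKM, 2.85 log2 units above the median member, against -1.69 to 0.57 in the somatic libraries. Uqcrfs1 was at 293 FPKM, 2.65 above, against -0.25 to 1.07. Ndufs6 was at 121 FPKM, 1.38 above, against -1.34 to -0.42. Each lay above its whole somatic range. The farthest outside were Atp5s, by 2.78, Ndufa12, by 2.28, Ndufa4l2, by 2.23, Ndufs6, by 1.81, Uqcrfs1, by 1.58, and Ndufa13, a membrane-arm subunit also known as GRIM-19, by 1.31. In the other direction the farthest were Ndufa4, by -1.92, Ndufb3, by -1.23, Ndufb11, by -0.88, Ndufa3, another complex I accessory subunit, by -0.74, Atp5g2, by -0.70, and Atp5g1, by -0.63. Ndufa4 and Ndufa4l2 thus differed in direction. Ndufa4l2 was at 39.2 FPKM in testis, higher than Ndufa4 at 20.3 FPKM, while in male heart Ndufa4l2 was at 132 FPKM and Ndufa4 at 3186 FPKM. When columns were scaled to the same FPKM sum, 8 of the 17 stayed at least 1 log2 unit below every somatic library, among them Ndufa4, Ndufb3, Ndufc2, ATP5G3 and Sdhc (1.37% of all genes). Atp5s and Ndufa12 were then above every one (18.5%).

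**Figure D4:**
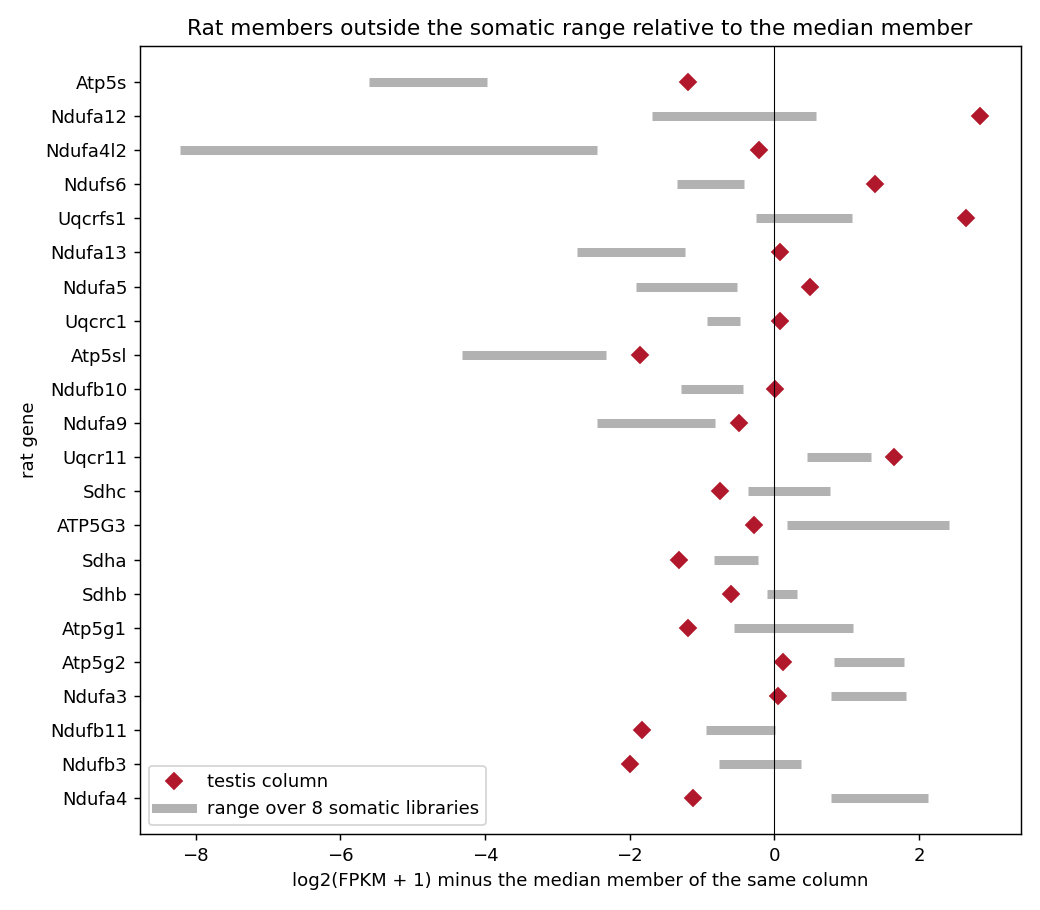
Named rat members whose level relative to the median member of the column lies at least 0.3 log2 units outside the somatic range in testis. Diamonds are the testis column and grey bars the range over the 8 somatic libraries. Atp5s, Ndufa12 and Ndufa4l2 lie farthest to the right of their bars, and Ndufa4 and Ndufb3 farthest to the left.

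The marmoset testis value did not lie outside the somatic range by 1 log2 unit for any of the 9 members (7.78% of all genes above, 3.51% below), nor did it after scaling to the same FPKM sum. With the brain columns left out 3 were that far below (6.94%). At any distance it was below every somatic library, as for 17.8% of all genes, for ATP5A1 (104 FPKM against a lowest of 169 FPKM), NDUFS1 (27.0 against 43.8 FPKM), ATP5B (93.2 against 132 FPKM) and UQCRC2 (9.11 against 10.4 FPKM). NDUFS6, the matrix-arm subunit that stood high in rat testis, was at 119 FPKM, above both brain columns at 57.7 and 56.7 FPKM. Germ-cell markers were low in this column. The 4 listed summed to 31.9 FPKM, with 29.8 FPKM for DDX4, a germ-cell helicase, and 0.169 FPKM for TNP1, a spermatid transition protein, which the rat had at 3396 FPKM. Heart and liver markers summed to 251 and 288 FPKM there. The part of these in the result was not tested.

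Ovary stood near the somatic floor without leaving it by 1 log2 unit in either species. For that distance the shares of all genes were 1.17% above and 0.426% below in the rat, and 1.37% and 1.01% in the marmoset. After scaling to the same FPKM sum no member left the range by that distance either. With the brain columns left out, 28 rat members (2.24% of all genes) and 7 marmoset members (3.39%) were that far below. In the marmoset 8 of 9 members were below every somatic library at any distance (11.7% of all genes), NDUFA11 being the exception at 16.3 FPKM against a lowest of 12.3 FPKM. NDUFS6 was farthest, at 29.6 FPKM against 56.7 FPKM (-0.91). In the rat 24 of 68 were below (9.85% of all genes), with Ndufa8, a complex I subunit of the intermembrane space, farthest at 28.7 FPKM against 52.7 FPKM (-0.85), and Ndufs6 next at 36.0 FPKM against 51.4 FPKM (-0.50). Relative to the median member, rat ovary had Sdhb 0.77 above its somatic range, at 172 FPKM. Ovary markers were present, 10 of 10 at 1 FPKM or more in the rat with a sum of 1332 FPKM and 8 of 8 in the marmoset with a sum of 134 FPKM.

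In the wallaby, testis and liver of males were compared with 1 column each and no test. The median member was at 55.8 FPKM in testis and 295 FPKM in liver. Of 37 members with at least 5 FPKM in the higher tissue, 31 were lower in testis by at least 1 log2 unit (54.9% of all genes) and 2 higher (20.1%). NDUFA10, a complex I accessory subunit at 0.564 FPKM in testis and 3.05 FPKM in liver, was below the minimum. The median difference was -2.54, against -1.28 over all genes. After centring each column on its median it was -1.63, against -0.37.

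The c subunit genes led the decreases. ATP5G3 was at 42.1 FPKM in testis and 1087 FPKM in liver, a difference of -4.66, ATP5G2 at 15.1 and 381 FPKM (-4.57) and ATP5G1 at 25.8 and 591 FPKM (-4.46). Their shares of the summed level were alike in both tissues, with ATP5G3 at 50.7% in testis and 52.8% in liver. SDHC followed at 21.6 FPKM in testis and 490 FPKM in liver (-4.44), and NDUFB4, a membrane-arm subunit, at 14.5 and 312 FPKM (-4.34). The 2 higher in testis were NDUFV3, a matrix-arm subunit, at 274 FPKM in testis and 95.9 FPKM in liver, and ATP5S at 71.4 and 28.3 FPKM (1.30). Near 0 were NDUFA4L2 (0.02), NDUFA12 (-0.01) and NDUFB2, of the membrane arm (-0.12). After scaling to the same FPKM sum, 13 were lower and 6 higher (26.3% and 41.5% of all genes), with a median of -0.59 against 0.49 over all genes. Testis markers summed to 82506 FPKM, of which PRM1 made up 72536 FPKM.

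Rat and wallaby tables were normalized separately, so their differences are only set side by side. Of 33 genes named once in both, 30 were lower in testis than in liver in both species, against 43.6% of the 8516 genes named once in both. After scaling to the same FPKM sum 13 of 33 were, against 16.9%. On the deposited scale the 3 others were ATP5S, NDUFA12 and NDUFA4L2. Rat Atp5s was at 19.4 FPKM in testis and 5.14 FPKM in male liver (1.73), and rat Ndufa12 at 335 and 91.1 FPKM (1.87). Rat Ndufa4l2 was at 39.2 FPKM in testis and listed at 0 in liver. ATP5G3 was among the lowest in both, at -5.37 in the rat. UQCRQ differed in place, as the lowest rat gene at -5.58 but at -1.68 in the wallaby.

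**Figure D5:**
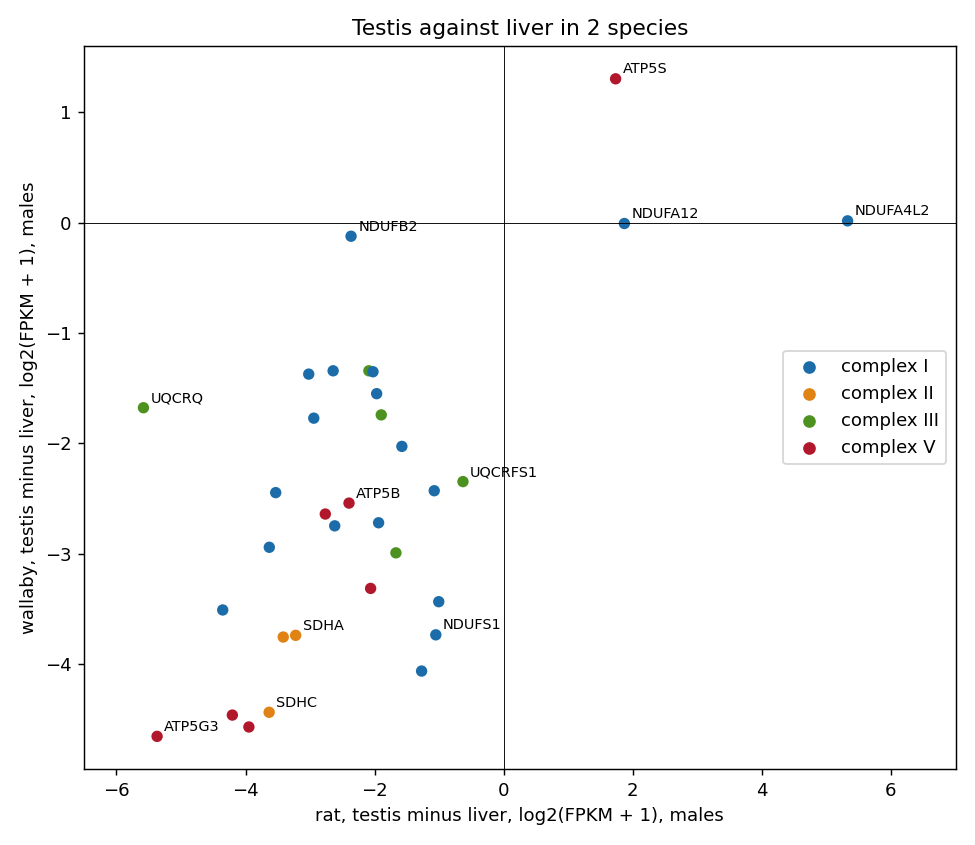
Testis minus liver differences of log2(FPKM + 1) in males, rat on the horizontal and wallaby on the vertical axis, for 33 genes coloured by complex. Most points lie lower left, ATP5G3 at -5.37 and -4.66, while ATP5S lies upper right at 1.73 and 1.30 and NDUFA4L2 far right with rat liver listed at 0.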

How the data were processed

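The deposited values are FPKM by the authors, in 1 table per species. The submitters' processing notes name TopHat 1.4.0 with Cufflinks 2.0.0, per the labels. Genome build, annotation and the normalization between tissues: not given in the sources used here. Per the labels' protocols the marmoset libraries were strand-specific. For the rat and wallaby this is not stated, so overlapping antisense reads cannot be told apart there. Of the table columns 22 were used. The other 8 hold no value above 0.

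Members were found by name. The members and the gene lists were chosen with earlier results of these data known. Modules within the complexes were set after the values were seen. The text names the 6 called members with the largest change in each direction per tissue comparison, core subunits, paralogues, X-linked members, the extremes by level and, in testis, ovary and wallaby, those farthest outside. Examples from the other lists are among their largest changes. Others named, such as Ndufs4 in brain or PPARGC1A and ECSIT in rat heart, were chosen after their values were seen. Values of 1 rat member and 1 gene of another list are not reported here.

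The somatic tissues entered 1 limma fit per species (limma 3.58.1, R 4.3.3, trended prior variance), run on log2(FPKM + 1), with 8 libraries each and the animal as a block. Tested were genes that reached 1 FPKM in 2 libraries, 15100 in the marmoset and 14560 in the rat. Percentages of all genes are over those above 0 in all libraries, and members listed at 0 in a library were not counted as called. The animals pair the samples by the labels. Residuals of the tissues correlated within animals in all 6 tissue pairs, at 0.541 to 0.716 in the marmoset and 0.143 to 0.506 in the rat. The block takes out the average difference between the 2 animals. With 1 animal per sex, p-values measure how unevenly the tissue differences ran in these 2 animals. Testis, ovary and wallaby columns have no replicate and no test. Alternatives were a pseudocount of 0.1, no filter, no block, median centring, leaving out the brain columns, each library left out in turn, and, chosen after seeing the data, scaling to the same FPKM sum and adding further marmoset entries.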

Additional observations from a re-analysis of the deposited data

Results flagged for a closer look

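In 3 members the marmoset and the rat moved in opposite directions in the same tissue comparison, in both animals of each species. In none was the difference between species tested, and the species were normalized separately. UQCRC2, a core protein of complex III, was at 0.69 log2 in marmoset liver and at -1.11 in rat liver, each against the mean of heart, brain and kidney. NDUFS6, a matrix-arm subunit of complex I, was at 0.49 in marmoset liver and at -0.074 in rat liver. UQCR11, a small subunit of complex III, was at 0.18 in marmoset kidney and at -0.40 in rat kidney. Of these values only the rat UQCRC2 change was called by limma. The opposite signs of the deposited scale were lost with equal FPKM sums. With every column scaled to the same FPKM sum, UQCRC2 was at -0.93 in marmoset and -1.77 in rat liver, NDUFS6 at -1.17 and -0.73, and UQCR11 at 0.48 in marmoset and 0.47 in rat kidney, with both animals of both species on the same side each time.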

How the results depend on the processing

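Scaling every column to the same FPKM sum, chosen after seeing the data, changed many counts. It gave 16 rat members in heart against 67, 23 in rat brain against 66, 7 in rat kidney against 0, 0 in marmoset brain against 9, 7 in marmoset liver against 1, 10 in rat testis against 17 and 19 in the wallaby against 33. Marmoset SDHA in liver turned to -0.58. Without the replicate block 4 marmoset members were called in heart, 0 in marmoset liver and 4 in rat liver, and the other tissue counts stayed within 1.5 times. Median centring gave 0 in marmoset liver and 7 in rat liver. By adjusted p alone 1 member was called in kidney in each species. Without the brain columns 5 marmoset and 40 rat members were called in kidney, and 3 (marmoset testis), 7 (marmoset ovary), 49 (rat testis) and 28 (rat ovary) lay outside the somatic range. With the brain columns kept and any distance counted, the numbers outside were 4, 8, 56 and 24.

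With each library left out in turn, the marmoset counts were 6 to 9 in heart, 8 to 9 in brain, 0 to 0 in kidney, 0 to 1 in liver, 0 to 1 in testis and 0 to 3 in ovary. The rat counts were 48 to 68, 65 to 66, 0 to 1, 0 to 9, 17 to 20 and 0 to 1. The values above 0 in marmoset testis and ovary came without the female brain column. With the further marmoset entries the counts were 36 in heart, 40 in brain, 1 in kidney and 6 in liver. Over single named members, 190 of 234 values under other settings and 298 of 328 with a library left out kept their direction and call. The depth is unknown.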

Other observations

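A further 31 marmoset entries without a name in the table carry names of these subunits in an Ensembl name table, and were added after the data had been seen. In heart 27 of 31 were called higher by limma, with a median of 1.65, against 13.5% of all genes. In brain 31 of 31 were lower, with a median of -2.13, against 29.2%. In liver 5 were higher, against 21.7% of all genes, and in kidney 1 was lower, against 7.96%. Germ-cell markers were low in the marmoset testis column. There 4 of the further entries were at least 1 log2 unit below every somatic library, against 3.51% of all genes. These were the complex I subunits NDUFA9 (-1.54) and NDUFS4 (-1.21) and the membrane anchors of complex II, SDHC (-1.19) and SDHD (-1.06). At that distance 0 were above every somatic library, against 7.78% of all genes. NDUFA10, an accessory subunit of complex I, was at 163 FPKM there, above every somatic library by 0.56.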
